A study of Homo sapiens with 3 samples.

Results

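PARP9, DTX3L, PARP14, PARP10 and PARP12 are enzymes or enzyme partners of ADP-ribosylation that interferon is known to induce, and PARP1 is their constitutively expressed relative. These 6 genes were followed here through every probe set that the platform annotation pairs with one of them and with no other gene, which gave 11 of the 41091 probe sets with 1 gene. The 6 were selected on log2 differences of the same arrays, miR-146a against vector, seen in earlier work on these data. Those differences between conditions are therefore given as a description, with no test. RNA came from HT29 cells, an established human cell line of colorectal adenocarcinoma origin grown in serum-containing DMEM. The vector group is 1 array of cells carrying an empty lentiviral vector, and the miR-146a group is 2 arrays of cells carrying a lentiviral miR-146a expression construct. Lentiviral transduction is thus common to both groups. The study asks which transcripts differ when the microRNA is expressed. Promoter of the construct, clonality, and whether the 2 miR-146a replicates are separate cultures are not stated in the labels.

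ADP-ribosylation is the transfer of ADP-ribose from NAD onto proteins or nucleic acids by PARP enzymes. PARP1 builds long chains of it at DNA breaks, whereas PARP10, PARP12 and PARP14 add single units and are known for roles in antiviral defence. PARP9 carries macrodomains that bind ADP-ribose and works as a heterodimer with the ubiquitin ligase DTX3L, a Deltex family member. PARP9 and DTX3L lie head to head on chromosome 3 and share a promoter region that interferon is known to activate. miR-146a is known for dampening signalling from Toll-like and interleukin-1 receptors.

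The mature 5p strand of the microRNA that the construct is named for is shown because it is the agent of the comparison. Its seed, bases 2 to 8, is in capitals (RefSeq, GRCh38.p14, chr5:160485372-160485393, plus strand).
hsa-miR-146a-5p: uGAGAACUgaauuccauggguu
Promoter windows from RefSeq (GRCh38.p14; 250 bases before to 50 after each annotated start) were matched for 5 of the 6 genes, in 6 windows, and not for PARP10. They were searched on both strands for GAAANNGAAA, the core of the interferon-stimulated response element, in which N is any base. PARP9, DTX3L, PARP14 and PARP12 each held 1 match, and PARP1 held none in its window. Across all 35116 windows of the same length 3.57% held a match. The sequences below are printed on each gene's own strand with the match in capitals, so a match on the opposite strand reads TTTCNNTTTC. The PARP9 and DTX3L stretches are the same bases, chr3:122564322-122564351, read on the minus and the plus strand.
PARP9: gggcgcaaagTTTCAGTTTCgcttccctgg
DTX3L: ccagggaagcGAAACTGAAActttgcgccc
For PARP14 (chr3:122680689-122680838, plus strand), PARP12 (chr7:140062952-140063101, minus strand) and PARP1 (chr1:226408094-226408243, minus strand) the 150 bases before the annotated start are shown.
PARP14: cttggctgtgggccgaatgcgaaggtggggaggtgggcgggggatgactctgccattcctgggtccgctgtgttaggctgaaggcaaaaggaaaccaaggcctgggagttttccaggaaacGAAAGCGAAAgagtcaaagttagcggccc
PARP12: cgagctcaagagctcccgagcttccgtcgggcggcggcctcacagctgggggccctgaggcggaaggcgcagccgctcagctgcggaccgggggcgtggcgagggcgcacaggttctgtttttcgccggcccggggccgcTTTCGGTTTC
PARP1: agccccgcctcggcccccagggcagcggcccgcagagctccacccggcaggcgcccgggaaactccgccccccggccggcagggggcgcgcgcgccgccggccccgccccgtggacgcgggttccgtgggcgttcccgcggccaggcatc

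The annotated starts of DTX3L and the nearer of 2 PARP9 windows lie 38 bases apart on opposite strands, and the single match GAAACTGAAA lies across the DTX3L start. Counted from each start, that match spans positions -41 to -32 of PARP9 and -6 to 4 of DTX3L. The other PARP9 window, whose start is 446 bases from that of DTX3L, held no match. In PARP14 the match GAAAGCGAAA spans positions -29 to -20, and in PARP12 the match GAAACCGAAA spans -10 to -1. PARP14 was also the 1 gene of the 5 with a match to TTCNNNGAA, the core of the gamma-activated site, at positions -40 to -32, just before and not overlapping its other match. This shorter motif was in 7.66% of all windows. A match is a run of letters in these windows and was not measured as a bound site.

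The deposited values are log2 signals made by RMA, in which each probe set has 1 value per array. Their medians were 5.13 for the vector, 5.14 for miR-146a replicate 1 and 5.12 for replicate 2, and precision is limited by there being 3 arrays. A gene's leading probe set is the one with the highest mean signal. Genes counted as above the filter when that mean exceeded the overall median of non-control probe sets, 5.13, as 12444 of 19775 did. Between the 2 miR-146a arrays the differences over these genes had an SD of 0.11, against 0.20 and 0.19 for each replicate against the vector. All 6 members passed through their leading probe set, as did 10 of their 11 probe sets. The vector has 1 array and so no spread of its own. SDs below are of the 2 miR-146a arrays and may be technical.

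PARP9 was read by 2 probe sets of unequal difference. Its leading probe set had log2 signals of 6.88 with vector, 8.10 in miR-146a replicate 1 and 8.07 in replicate 2. Both miR-146a values lay above the vector, by much more than they lay apart. Their mean was 8.09 ± 0.03 (SD, n = 2), a log2 difference of 1.20 or 2.30-fold. By this probe set PARP9 was the member furthest from the vector, at rank 9 of the 12444 genes, with ranks of 9 and 8 for replicates 1 and 2 alone. Its other probe set read 7.08 in the vector and 7.63 and 7.59 in the miR-146a arrays. This smaller difference of 0.53 (1.44-fold) ran the same way in both arrays. The leading probe set leads only through the miR-146a arrays, because in the vector array the other one is brighter. The choice of probe set thus used the difference itself. With probe sets chosen on the vector array alone, an alternative added after the data were seen, PARP9 stood at 0.53 and rank 119 of 12441 genes, below DTX3L, PARP14 and PARP12. The gap between the probe sets, 0.67, was larger than that of 98.0% of the 5922 genes with at least 2 probe sets above the filter, whose median gap was 0.18. Averaged over both probe sets the PARP9 difference was 0.87.

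DTX3L, the ubiquitin ligase bound to PARP9, was measured by 1 probe set. It read 9.16 in the vector and 9.81 and 9.75 in the miR-146a arrays. Their mean of 9.78 ± 0.04 (SD, n = 2) was 0.62 above the vector, or 1.54-fold, at rank 67. Both arrays were above the vector, and the gap between them was 0.06. The DTX3L difference lay between those of the 2 PARP9 probe sets.

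PARP14, a large enzyme with macrodomains known as a cofactor of interleukin-4 signalling, also read higher. Its leading probe set read 7.96 in the vector and 8.56 and 8.54 in the miR-146a arrays, a difference of 0.59 (1.51-fold; miR-146a mean 8.55 ± 0.02, SD, n = 2) at rank 84. The other PARP14 probe set was under the filter, at 3.96 in the vector array, 4.19 and 4.06 in the miR-146a arrays. It too was higher in both, by 0.23 and 0.10, and the average of both probe sets gave 0.38.

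PARP12, which has CCCH zinc fingers and is known for restricting virus replication, was measured by 1 probe set. It read 8.58 in the vector and 9.18 and 9.07 in the miR-146a arrays. Its difference was 0.54 (1.46-fold; miR-146a mean 9.12 ± 0.08, SD, n = 2) at rank 116. The gap between its replicates, 0.11, was the widest among the 6 leading probe sets, and both stayed above the vector.

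PARP10, a mono-ADP-ribosyltransferase that also binds ubiquitin, gave different readings in its 4 probe sets, all above the filter. The leading one, of the type marked x, read 7.41 in the vector and 7.72 in each miR-146a array, a difference of 0.32 (1.25-fold) with identical values in the replicates, as 19.3% of all probe sets had. The x marks a probe set in which some probes may also match other sequences. The second by signal read 6.15 in the vector, 6.15 in replicate 1 and 6.03 in replicate 2, and so was not higher in either. The remaining ones differed by 0.09 and 0.02. PARP10 was at rank 650 through its leading probe set, but its average over the 4 was 0.09. The size of its difference therefore rests on the leading probe set.

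PARP1, the comparator, was measured by 1 probe set at 10.05 in the vector and 10.23 in both miR-146a arrays. The difference of 0.18 (1.13-fold; miR-146a mean 10.23 ± 0.00067, SD, n = 2) was above the vector in each array and placed PARP1 at rank 1922. This is smaller than the SD over genes of each replicate against the vector, 0.20 and 0.19. PARP1 lay closer to the vector than the leading probe set of any other member, although the lower 3 PARP10 probe sets and the dim one of PARP14 lay closer still.

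**Figure D1:**
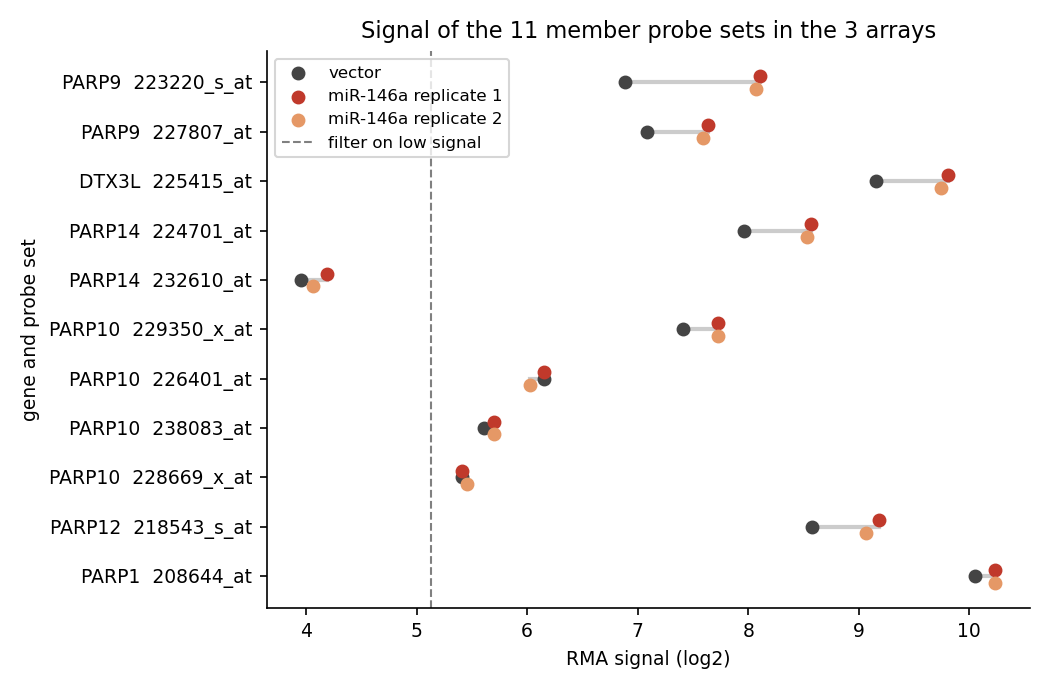
RMA signal (log2, horizontal axis) of each of the 11 member probe sets in the vector array (dark), miR-146a replicate 1 (red) and replicate 2 (orange), with the filter on low signal dashed. The widest separation is that of the leading PARP9 probe set, from 6.88 to 8.10, while the lower 3 PARP10 probe sets show little or none.

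Of the 11 probe sets, 9 exceeded the vector in each miR-146a array, and 0 were lower in both. The same was true of 30.2% of all probe sets with 1 gene. Counted per gene, all 6 leading probe sets were higher in both arrays, against 40.2% of genes, and their median difference was 0.57, against 0.01 over all genes. PARP9 was at least 2-fold higher in both, 1 of 15 genes (0.121%) of that size, by its leading probe set alone. It fell short of 2-fold with probe sets averaged (0.89 and 0.85 in the 2 arrays), and its other probe set, at 0.55 and 0.51, fell short of 1.5-fold too. At least 1.5-fold higher in both were PARP9 and DTX3L, where 68 genes (0.546%) were. This limit is 0.58 on the log2 scale, and DTX3L lay just inside it with a smaller array difference of 0.59. PARP14 lay just outside it with 0.58 (1.49-fold), and PARP12 followed with 0.49 (1.40-fold). With probe sets chosen on the vector array PARP9 fell outside and the count was 1. With cyclic loess normalization DTX3L fell outside and the count was also 1. Without miR-146a replicate 2 PARP14 and PARP12 came inside and the count was 4. Leaving out an array asks the limit of 1 array only, so that last count could only stay or rise. These counts use the contrast on which the genes were proposed and carry no weight as evidence.

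Limma, fitted over all 12444 genes with Benjamini-Hochberg adjustment, called 0 of them (0.0%) at an adjusted p of 0.05, and 2933 had an unadjusted p under 0.05. Under a prior estimated on genes with unequal replicates it called 592 genes higher (4.76%) and 294 lower. With a robust prior it called 433 higher and 202 lower. No p-value is given for the members.

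**Figure D2:**
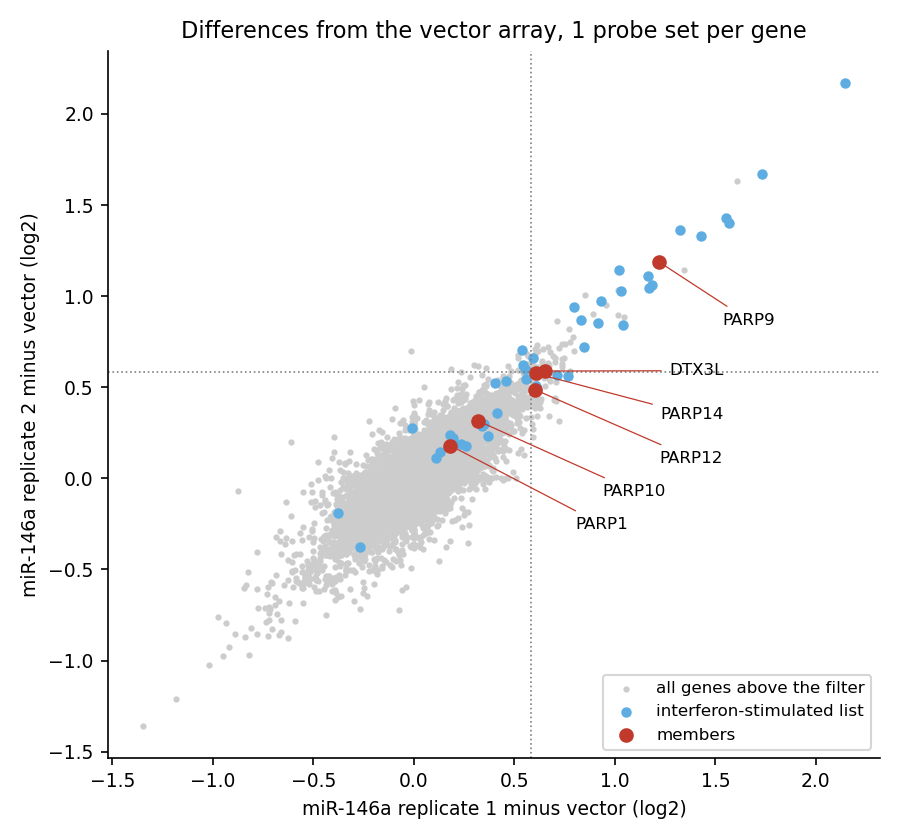
Difference of miR-146a replicate 1 (horizontal) and replicate 2 (vertical) from the vector array on the log2 scale for each of 12444 genes, with the interferon-stimulated list in blue, the 6 members in red and dotted lines at 1.5-fold. PARP9, by its leading probe set, lies among the furthest genes, DTX3L, PARP14 and PARP12 lie close to the 1.5-fold lines, and PARP10 and PARP1 lie nearer the bulk of genes.

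The rest of the PARP family did not read higher as a group. Of the other 12 genes, 11 were above the filter; 2 of these were higher in both arrays and 6 lower in both, against 40.2% and 28.8% of all genes. Their median difference was -0.08, with a range from -0.22 to 0.25, and it was 0.01 when each gene's probe sets were averaged. None was 1.5-fold away from the vector in both arrays. The highest was PARP11, a mono-ADP-ribosyltransferase, at 6.02 in the vector and 6.28 and 6.25 in the miR-146a arrays, a difference of 0.25. Its other 2 probe sets, below the filter, differed by -0.18 and 0.00. The lowest was TIPARP, a target gene of the aryl hydrocarbon receptor, at 10.78 in the vector and 10.58 and 10.55 in the miR-146a arrays, a difference of -0.22.

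PARP2, the closest relative of PARP1 in the response to DNA breaks, differed by -0.17, with its other probe sets at -0.12 and -0.25. The PARP1 and PARP2 readings thus lay on opposite sides of the vector. TNKS2, a tankyrase that regulates telomeres and Wnt signalling, differed by -0.12, and its other 3 probe sets lay between -0.21 and -0.14. ZC3HAV1, an antiviral family member that binds viral RNA, read 9.80 in the vector and 9.86 and 9.80 in the miR-146a arrays. Its leading probe set was thus not higher in replicate 2, and its other probe sets differed by 0.25 and -0.02. Of the 10 other family genes with a promoter window, 0 held GAAANNGAAA.

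**Figure D3:**
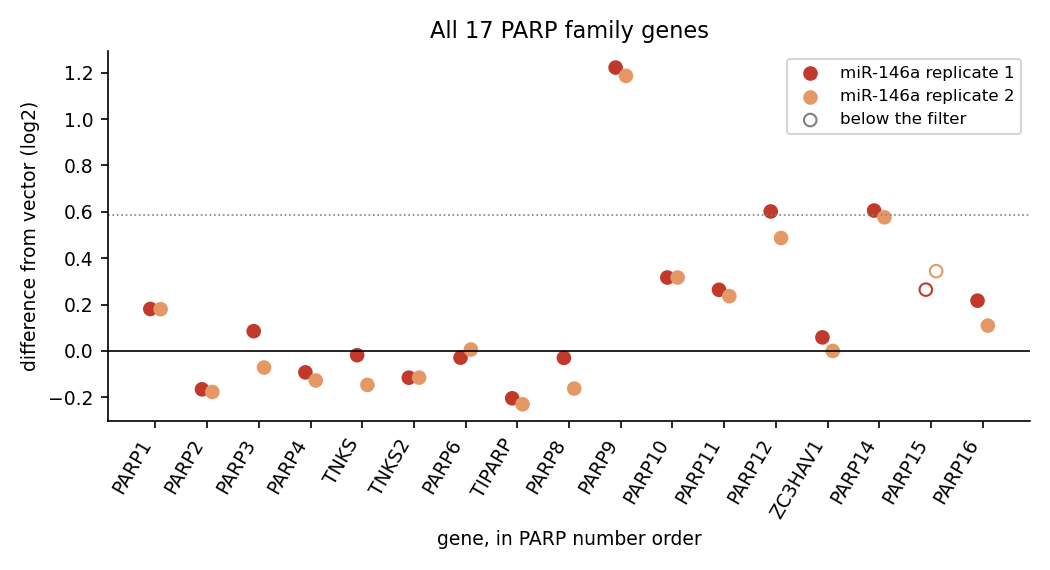
Difference from the vector array (log2, vertical axis) of the leading probe set of all 17 PARP family genes in miR-146a replicate 1 (red) and replicate 2 (orange), with open circles below the filter and the dotted line at 1.5-fold higher. PARP9, PARP14 and PARP12 stand highest, PARP10, PARP11, PARP1 and PARP16 lie between 0.11 and 0.32, and the other genes above the filter lie between -0.23 and 0.09.

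On chromosome 3 the protein-coding genes from PARP9 to PARP14 are PARP9, DTX3L, PARP15 and PARP14, in the order of the RefSeq gene table. PARP15, a macrodomain family member known from lymphoid cells, was under the filter, at 2.82 in the vector array, 3.08 and 3.16 in the miR-146a arrays. It was higher in both arrays at a signal where a reading cannot be told from background, since the files used here carry no detection calls. Of the 5 genes on either side, 9 had a probe set of their own and 8 were above the filter.

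The nearest neighbours outside the stretch were KPNA1, an importin, on the PARP9 side and HSPBAP1 on the PARP14 side. KPNA1 read 8.80 in the vector and 8.82 and 8.91 in the miR-146a arrays, a difference of 0.06. Its other 5 probe sets, all above the filter, disagreed, at 0.30, -0.03, -0.04, -0.26 and -0.42, and the last 2 of these were lower in both arrays. HSPBAP1 read 7.08 in the vector and 7.30 and 7.25 in the miR-146a arrays, a difference of 0.20, and its promoter window held GAAANNGAAA. FAM162A, whose window also held that motif, differed by -0.16. WDR5B differed by 0.13, SLC49A4 by 0.04, SEC22A by 0.03, SEMA5B by -0.02 and MIX23 by -0.09, and CSTA, below the filter, by -0.15. By leading probe sets, 4 of the 8 neighbours above the filter were higher and 3 lower in both arrays. Of all genes, 40.2% were higher and 28.8% lower in both. None of the neighbours reached 1.5-fold in both, a size that 0.546% of all genes reached upward and 0.297% downward.

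**Figure D4:**
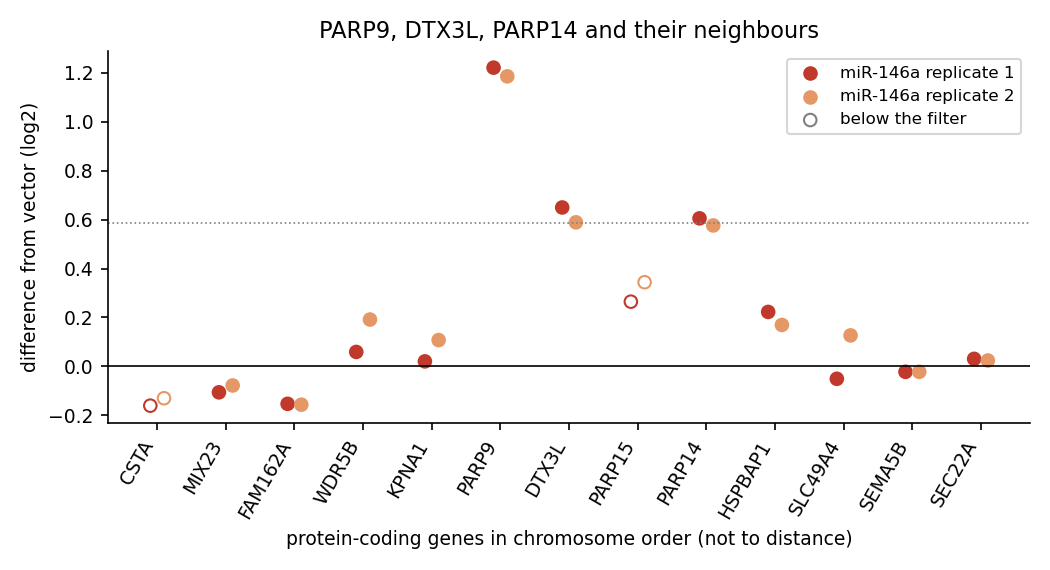
Difference from the vector array (log2, vertical axis) in miR-146a replicate 1 (red) and replicate 2 (orange) for PARP9, DTX3L, PARP15, PARP14 and their neighbours in chromosome order, with open circles below the filter. Points are leading probe sets. PARP9, DTX3L and PARP14 stand above both flanks, whose leading probe sets lie between -0.16 and 0.22.

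The rest of the Deltex family lay close to the vector, on its lower side. These 4 genes, ubiquitin ligases known from Notch signalling, were all above the filter and all lower in both arrays, where 28.8% of genes were. The sizes were small, with DTX2 at -0.12, DTX4 at -0.09, DTX1 at -0.04 and DTX3 at -0.03. No test of DTX3L against them was made.

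Genes that remove or read ADP-ribose showed no common shift. Of 13 with a probe set, 12 were above the filter. Of these, 4 were higher in both arrays and 2 lower in both, where 40.2% and 28.8% of all genes were. The median was -0.01. The highest was ADPRS, the hydrolase that takes ADP-ribose off serine, at 8.46 in the vector and 8.85 and 8.79 in the miR-146a arrays, a difference of 0.35 or 1.28-fold. PARG, which cuts the chains built by PARP1, differed by 0.02, and MACROD1, a macrodomain hydrolase, by 0.07. OARD1, another such hydrolase, differed by -0.08. CHD1L, a remodeller recruited by the chains, differed by 0.09, but its other probe sets ranged from -0.69 to 0.33.

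By leading probe sets, genes of NAD supply and nicotinamide use likewise lay near the vector, with 1 exception. Of 10 above the filter 3 were higher and 3 lower in both arrays, where 40.2% and 28.8% of all genes were. Their median was 0.00029. NNMT, which methylates the nicotinamide that PARP reactions release, read 6.04 in the vector and 7.65 and 7.67 in the miR-146a arrays, a 3.08-fold difference. NAMPT, the rate-limiting enzyme that recycles nicotinamide to NAD, read 9.87 in the vector and 9.75 and 9.90 in the miR-146a arrays, on either side of the vector. Its other 3 probe sets, all above the filter, were lower in both arrays, with differences of -0.77, -0.16 and -0.30. The first of them was at least 1.5-fold lower in both, at -0.87 and -0.68. NAPRT differed by 0.15, QPRT by -0.06 (its other probe set by 0.33) and NMRK1, a nicotinamide riboside kinase, by -0.25.

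For PARP1 the fixed list of single-strand break repair gave 15 genes above the filter, of which 8 were higher and 3 lower in both arrays, with a median of 0.04. Over all genes 40.2% were higher and 28.8% lower. FEN1, the flap endonuclease, was highest with a difference of 0.50 (11.04 in the vector, 11.51 and 11.57 in the miR-146a arrays) and 0.29 in its other probe set. LIG1, a replicative DNA ligase, differed by 0.30, and UNG, a uracil glycosylase, by 0.23. XRCC1, the scaffold recruited by PARP1, differed by 0.04, and HPF1, the PARP1 cofactor for serine modification, by -0.0013. The PARP1 difference of 0.18 thus lay below those of FEN1, LIG1 and UNG and above those of XRCC1 and HPF1.

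Among interferon receptors, their kinases and IRF factors, 8 genes were above the filter, with a median of 0.05. Of these, 4 were higher and 2 lower in both arrays, where 40.2% and 28.8% of all genes were. The highest was IRF9, a DNA-binding factor for the interferon-stimulated response element, which read 7.26 in the vector and 7.84 and 7.88 in the miR-146a arrays. Its difference of 0.60 was close to those of DTX3L and PARP14. IRF1 differed by 0.19 (its other probe set by 0.11) and IFNGR1 by 0.13 (its others by -0.03 and 0.04). JAK1 differed by -0.17, and its other probe sets above the filter by -0.63 and 0.00. IFNAR1 differed by -0.25, with unequal array differences of -0.07 and -0.42.

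In the list of interferon-stimulated genes 41 were above the filter. Of these, 38 were higher in both arrays and 2 lower in both, where 40.2% and 28.8% of all genes were. Lower were ISG20 at -0.32 (its other probe set -0.33) and GBP2 at -0.28 (its other probe set -0.45). At least 1.5-fold higher in both were 18 of the 41. The list's median difference was 0.62, about that of DTX3L. Set among these 41 by leading probe sets, PARP9 lay below 6 and above 35, DTX3L and PARP14 each below 21 and above 20, PARP12 below 26, PARP10 below 30 and PARP1 below 36. That list was drawn up with earlier results of these arrays known and is no independent support.

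The 5 genes closest to the leading PARP9 probe set by Euclidean distance over the differences of the 2 miR-146a arrays from the vector were IFI27, PSMB9, UBE2L6, IFITM2 and IFI6. Their distances ran from 0.09 to 0.21, and 4 of the 5 belong to the interferon-stimulated list. DTX3L stood at place 62 from PARP9, at a distance of 0.83. Counted from DTX3L, PARP9 stood at place 5398 at that same distance. Closest to DTX3L were TRMT10C, PPP1R10, SAMHD1, SCAMP1-AS1 and CC2D2A, at distances from 0.02 to 0.04. None of those 5 is on that list. It is a fixed choice of 45 genes, so absence from it does not show that a gene is not induced by interferon. With 3 arrays that share 1 vector, such likeness describes the size of a difference and little else.

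GAAANNGAAA was also looked up in all 10059 genes above the filter that had a promoter window. It was present in 365 of them, or 3.63%, and in 18 of the 53 that were at least 1.5-fold higher in both arrays, or 34.0%. It was in 0 of the 26 that were at least 1.5-fold lower in both. Of the genes with the motif 4.93% were at least 1.5-fold higher in both arrays, against 0.361% of those without it. Most genes with the motif did not differ by that much: 49.6% were higher in both arrays, against 40.6% without it, and the medians were 0.04 and 0.02. Of the 4 members with a match, PARP9, by its leading probe set, and DTX3L were among the 18. Of 37 genes on the interferon-stimulated list with a window, 26 held the motif. TTCNNNGAA was in 9 of the 53 and in 8.12% of the 10059.

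The cell type markers of colon epithelium varied widely in signal. EPCAM read 12.95 in the vector and KRT18 14.21, while CDX1 read 6.65, CDH17 5.86 and CDX2 5.63. All 9 epithelial markers were above the filter. Their differences ran from -0.54 for CDH17 to 0.10 for VIL1. Of the markers of leukocytes and B cells, since PARP9 and PARP14 are known from B-cell lymphoma, 3 of 7 were above the filter. CD14, the brightest of them, read 6.15 in the vector and 6.41 and 6.23 in the miR-146a arrays. CD79A differed by -0.11 and ITGAM by -0.02. Under the filter, PTPRC read 3.43 in the vector and 3.36 and 3.30 in the miR-146a arrays, and MS4A1 read 3.82 in the vector and 3.74 and 3.89. By leading probe sets CD14 was thus higher in both miR-146a arrays and CD79A lower in both. No direction is read for PTPRC and MS4A1, whose probe sets were all under the filter. Their other probe sets differed by -0.07 to 0.48 for PTPRC and by 0.05 to 0.39 for MS4A1. Of the fibroblast markers 3 of 7 and of the endothelial markers 1 of 5 were above the filter. By leading probe sets none was 1.5-fold away from the vector in both arrays. COL1A1 was the brightest of these, at 7.33 in the vector, above CDX1, CDH17 and CDX2. Its other probe sets read from 2.36 to 5.43 there.

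Among reference genes 9 were above the filter, with differences from -0.02 to 0.09 by leading probe sets. Other probe sets of these genes above the filter reached -0.38 for B2M and 0.17 for TUBB. Control probe sets at the 5′ end of ACTB and GAPDH, which follow RNA length and labelling, were lower than the vector by -0.23 and -0.31, while their 3′ probe sets differed by 0.04 and -0.02. This moved with the conditions alongside the members' differences, and its part in them was not tested. With 1 vector array, differences between separately transduced cultures and differences made by miR-146a cannot be told apart.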

How the data were processed

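The authors' deposited table gives log2 values made by RMA (background correction, normalization between arrays, probe summary), per the submitters' processing notes. Its version is not stated there. Values were used as deposited, for 54613 non-control probe sets in 3 arrays. The platform annotation named 41091 of them with 1 gene, and 1801 with more than 1, and 41037 matched RefSeq by Entrez number.

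The probe set with the highest mean signal led each gene, above a filter of 5.13. Differences are the mean of the 2 miR-146a arrays minus the vector, and folds are 2 to that power. limma 3.58.1 (R 4.3.3, lmFit, eBayes, two-sided, Benjamini-Hochberg, threshold 0.05) was run for background only. It had 1 residual degree of freedom, with 19.3% of probe sets exactly equal (tolerance 0) between the replicates. A check on simulated data drew its noise from unequal replicate values alone. It therefore cannot show how limma behaves with such equal values.

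The members and lists were chosen with earlier results of these data known. Named are all members, up to 4 genes of each list by the smaller array difference, every locus neighbour with a probe set, and the 5 nearest patterns. Not every gene picked from a list is described above. The 4 of the interferon-stimulated list, IFITM1, IFI44L, BST2 and MX1, are not. PARG, NAMPT, XRCC1, HPF1, ZC3HAV1, PARP15, PARP16, IFNAR1, ISG20, GBP2, B2M, PSMB9 and the markers were named after their values were seen. Alternatives covered probe set choice, filter, normalization, prior and leaving out either replicate. Figures were drawn with matplotlib 3.10.9.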

Additional observations from a re-analysis of the deposited data

How the results depend on the processing

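Every member kept its direction under the alternatives with 1 value per gene, and the ranges that follow are over these. Taken probe set by probe set PARP10 did not, since its second by signal differed by 0 and -0.12 in the 2 arrays. The log2 difference ranged from 0.53 to 1.22 for PARP9, 0.59 to 0.65 for DTX3L, 0.38 to 0.61 for PARP14, 0.49 to 0.60 for PARP12, 0.09 to 0.32 for PARP10 and 0.17 to 0.18 for PARP1. The lowest value for PARP9 came with probe sets chosen on the vector array, added after the data were seen, and those for PARP14 and PARP10 with all probe sets averaged. The count of members at least 1.5-fold higher was 2, and 1 with cyclic loess (PARP9) or with probe sets chosen on the vector array (DTX3L), and it ranged from 2 to 4 leaving out either miR-146a array. Over all genes that count was 40 with probe sets averaged and 88 to 110 leaving out either array, against 68. Leaving out an array asks the limit of 1 array only, so counts at that limit, higher or lower, could only stay or rise. At least 1.5-fold lower were 137 of 22580 probe sets with every probe set, and 22 of 8938 genes with the filter at percentile 70. Leaving out either array that count was 62 to 64 of 12444 genes, against 37 of 12444 in the main setting. Limma called 886 genes with the prior from unequal replicates and 635 with a robust prior, against 0. No paired analysis was possible because the vector has 1 array, with no replicate number in its label. Leaving out an array leaves limma no residual degree of freedom, so it was not run. Some list medians near 0 changed sign: the other PARP genes to 0.0068 and the locus neighbours to -0.043 with probe sets averaged, ADP-ribose removal to 0.025 at percentile 70, and NAD supply to -0.019 at percentile 70, -0.0035 with quantile normalization and -0.0095 with cyclic loess. Leaving out either replicate, the neighbours ranged from -0.0012 to 0.066, ADP-ribose removal from 0 to 0.059 and NAD supply from -0.0092 to 0.0033. The cause of these changes was not tested.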
